A study of Homo sapiens with 18 samples.

Results

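The regions described here are those of the integrin and laminin-332 genes ITGA2, ITGA3, ITGA5, ITGA6, ITGB1, ITGB4, ITGB6, LAMA3 and LAMB3 in an ATAC-seq study, in which the Tn5 transposase marks open chromatin. A region was taken as a member when it overlapped the body of 1 of these 9 genes or the 20 kb on either side (GENCODE release 44 on GRCh37, the genome build of the files), which gave 91 of 115087 regions. The cells were of 3 head and neck squamous cell carcinoma (HNSCC) lines, SCC1, SCC6 and SCC25. They were grown in medium with serum and given either 100 nM cetuximab, the EGFR-blocking antibody, once a day for 5 days or PBS as the untreated control. There were 3 cetuximab and 3 PBS libraries for SCC6 and for SCC25, and 3 cetuximab and 2 PBS libraries for SCC1, which makes 17. SCC1 PBS replicate 2 was not analysed here. Each group is a single established cell line, and nothing says that replicates came from separate cultures, so the p-values measure only the spread between these libraries.

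Integrins are receptors made of an alpha and a beta chain that tie the cell to the matrix around it. Laminin-332, whose alpha and beta chains are the products of LAMA3 and LAMB3, is the main laminin under squamous epithelium, where the receptor formed by ITGA6 and ITGB4 holds cells to it in hemidesmosomes and the receptor formed by ITGA3 and ITGB1 binds it in other contacts. ITGA2 pairs with ITGB1 to bind collagen, ITGA5 pairs with ITGB1 to bind fibronectin, and ITGB6 pairs with the alpha-V chain to activate latent TGF-beta in epithelial cells.

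Of the 91 member regions, 41 lay in the body of a member gene, 17 within 1 kb of a start site of the gene itself, 8 within 1 kb of a start site of another gene, 18 in the upstream flank and 7 in the downstream flank. LAMA3 had 15 regions, ITGA2 had 12, ITGA3, ITGA6, ITGB1 and LAMB3 had 11 each, ITGA5 had 9, ITGB6 had 7 and ITGB4 had 4. No region of ITGB6 lay within 1 kb of one of its own start sites. The member regions had a median width of 304 bases and a median GC content of 52%, against 258 bases and 45.9% over all regions, and 27.5% of them lay within 1 kb of a protein-coding start site, against 15.8% of all. A peak was called in every library in 6 of them: a start-site region of ITGA3, a start-site region of LAMA3, an intron region of ITGA6 and 1 of ITGB1, the region upstream of ITGB6, and a region in the ITGA2 window at the start site of another gene.

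Each of the squamous markers TP63, KRT5, KRT14, KRT6A, DSG3 and CDH1 had a region at its start site. In SCC6 PBS that of CDH1 had a mean signal of 79.8, those of KRT5 and TP63 had 21.4 and 18.5, that of KRT6A had 9.73, and those of KRT14 and DSG3, at 1.66 and 0.988, were close to the level of 1 read. Among these markers KRT6A rose in SCC1 (adjusted p = 0.0275), and in SCC6 KRT5 rose (adjusted p = 0.0125) and CDH1 fell (adjusted p = 0.0282). None of the blood and vessel markers PTPRC, CD3E, CD79A, PECAM1 and CDH5 had a start-site region. Reads in regions ranged from 2194851 to 15017130 per library. In SCC1 the cetuximab libraries had 13035 to 27086 peaks and the PBS libraries 34763 and 36033, and in member regions 16 to 29 peaks against 43 and 44. In SCC25 the cetuximab libraries had 18642 to 52665 peaks and the PBS libraries 49094 to 81963. SCC6 had 61122 to 101272 peaks after cetuximab and 47441 to 66383 in PBS. The part of these differences in the results of each line was not tested.

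The sequences of 5 regions on which the results turn are given first, so that the place behind each value can be found. They are from the plus strand of GRCh37, at most 300 bases long. Capitals mark the letters of a site for TFAP2 (GCCNNNGGC), AP-1 (TGACTCA) or TEAD (GGAATG) on either strand, and no capital stretches overlap. The LAMB3 gene lies on the minus strand, so higher coordinates are upstream of it.
LAMB3, 4.7 kb upstream, chr1:209830570-209830869: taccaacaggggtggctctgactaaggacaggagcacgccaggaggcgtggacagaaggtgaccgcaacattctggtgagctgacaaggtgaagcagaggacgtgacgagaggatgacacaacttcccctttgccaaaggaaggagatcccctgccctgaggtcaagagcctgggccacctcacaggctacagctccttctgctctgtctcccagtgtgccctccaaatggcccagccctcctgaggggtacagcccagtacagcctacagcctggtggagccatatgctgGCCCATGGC
LAMB3, 7.6 kb upstream, chr1:209833376-209833576: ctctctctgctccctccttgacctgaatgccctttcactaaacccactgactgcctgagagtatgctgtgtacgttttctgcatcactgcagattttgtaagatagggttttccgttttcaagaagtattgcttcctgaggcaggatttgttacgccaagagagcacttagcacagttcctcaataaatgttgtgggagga
LAMB3, intron, chr1:209817119-209817261: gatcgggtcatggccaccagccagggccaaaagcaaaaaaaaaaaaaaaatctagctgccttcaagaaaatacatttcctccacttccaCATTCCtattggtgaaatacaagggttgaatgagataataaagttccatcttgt
ITGB6, past the gene end, chr2:160948014-160948313: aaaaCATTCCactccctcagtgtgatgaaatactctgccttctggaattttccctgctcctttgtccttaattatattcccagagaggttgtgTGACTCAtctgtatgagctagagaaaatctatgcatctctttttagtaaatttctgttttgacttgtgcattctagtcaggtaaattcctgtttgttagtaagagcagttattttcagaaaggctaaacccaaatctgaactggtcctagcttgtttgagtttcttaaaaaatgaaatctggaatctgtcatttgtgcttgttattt
ITGA5, intron, chr12:54805250-54805549: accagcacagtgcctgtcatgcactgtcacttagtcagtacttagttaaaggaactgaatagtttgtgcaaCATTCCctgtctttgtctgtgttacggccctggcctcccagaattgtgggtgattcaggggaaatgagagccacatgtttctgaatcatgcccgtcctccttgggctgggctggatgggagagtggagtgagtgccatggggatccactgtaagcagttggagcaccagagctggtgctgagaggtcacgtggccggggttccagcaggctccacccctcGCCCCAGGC

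The AP-1 letters occurred in 37 of the 91 member regions (40.7%, against 26.6% of all regions), the TFAP2 letters in 19 (20.9% against 14.5%) and the TEAD letters in 23 (25.3% against 23.3%). These shares are for regions of unequal width. Of regions within 50 bases of the width of the named region, 21.4% held the TFAP2 letters for the LAMB3 region 4.7 kb upstream, 37.3% held the AP-1 letters for the ITGB6 region and 33% the TEAD letters for the ITGA5 region. For the LAMB3 intron region, 15.3% held the TEAD letters. The LAMB3 region 7.6 kb upstream held none of the 3 motifs. A match of letters is a description of the sequence only.

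Signal is the authors' scaled read count per region, and changes are log2 values of signal + 1, cetuximab against PBS, so the change of low regions is understated. A region is said to have risen or fallen where limma gave a Benjamini-Hochberg adjusted p under 0.05 over all regions tested in that line. The plot of changes by gene shows all tested member regions.

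**Figure D1:**
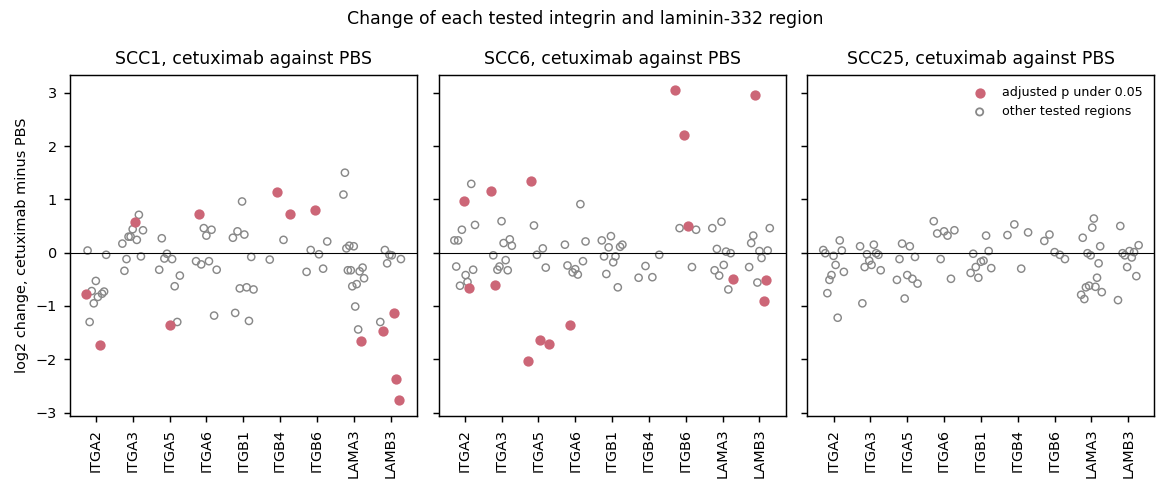
Log2 change of signal, cetuximab minus PBS (vertical axis), of every tested member region of the 9 genes (horizontal axis) in SCC1, SCC6 and SCC25; each point is a region, ordered along its chromosome within a gene, and filled points passed an adjusted p under 0.05. The filled points number 13 in SCC1, 16 in SCC6 and 0 in SCC25, with the lowest SCC1 values in LAMB3 and the highest SCC6 values in ITGB6 and LAMB3.

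In SCC1 cetuximab was followed by lower signal upstream of LAMB3 and by higher signal at the ITGB4 start site. Of 85 member regions tested, 5 rose and 8 fell. Start-site regions of ITGB4, ITGA6 and ITGA3 rose, that of ITGA3 at the start of a transcript 6.33 kb inside the gene. The others that rose were an intron region of ITGB6 and a region past the end of ITGB4 at the start site of GALK1. Those that fell were 4 regions of LAMB3, 2 of ITGA2, 1 of LAMA3 and 1 of ITGA5. Over all regions tested in SCC1, 4.57% rose and 6.56% fell, so the member shares of 5.88% and 9.41% were near the background. The median log2 change was -0.16 over member regions and -0.09 over all regions. With 1 PBS library left out, and the spread of the lone remaining library assumed to be like that of the others, the count fell to 2 where replicate 1 of SCC1 PBS was absent and to 6 where replicate 3 was. The calls kept without replicate 1 were the LAMB3 region 4.7 kb upstream and the ITGB4 start site. With the trend with GC content removed, 2 member regions rose and 7 fell, where 2975 and 5456 of all regions did. With median centring, which moved the median of all regions to 0.097, 6 rose and 7 fell. There 6852 of all regions rose and 3647 fell.

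LAMB3 encodes the beta chain of laminin-332. Its region 4.7 kb upstream of the start (chr1:209830494-209830927, outside any protein-coding gene) had a signal of 152 and 134 in the SCC1 PBS libraries. In the cetuximab libraries it had 27.9, 29.2 and 23.5. The groups were far apart, with every treated library well below both PBS libraries. This was a log2 change of -2.37 ± 0.32 (SE, adjusted p = 1.1e-09), or 5.18-fold lower on that scale, and it was kept under each of 14 alternatives. A peak was called there in 2 of 2 PBS libraries and in 0 of 3 cetuximab libraries. The recovered reads were 117 and 120 in PBS and 15 to 22 after cetuximab, so the values rest on more than a few reads.

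The same region changed less in the other lines. In SCC6 the PBS libraries had a signal of 145, 203 and 172 and the cetuximab libraries 114, 110 and 140, without overlap. There the change was -0.51 ± 0.14 (SE, adjusted p = 0.00589), and it lost the call without SCC6 PBS replicate 2 (adjusted p = 0.092) and with the GC trend removed (adjusted p = 0.0801). In SCC25 the PBS libraries had 134, 135 and 126 and the cetuximab libraries 120, 136 and 142, and the groups overlapped. The SCC25 log2 change was 0.01, with a 95% confidence interval of -0.30 to 0.31. Whether the treatment effect differed between the lines was asked with limma's F-test of the interaction, which gave an adjusted p of 9.9e-07 here, and all 24 alternatives kept it, with adjusted p-values up to 4.9e-05.

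The neighbouring upstream regions of LAMB3 were also lower in SCC1. The region 3.5 kb upstream (chr1:209829225-209829500) had a signal of 114 and 115 in PBS and of 45.7, 50.6 and 59.5 after cetuximab, a log2 change of -1.14 ± 0.29 (SE, adjusted p = 0.00245). Here SCC6 moved the same way, from 90.6, 100 and 110 to 52.5, 54.8 and 50.6, a log2 change of -0.91 ± 0.19 (SE, adjusted p = 0.000257). Neither line showed overlap between its groups at this place. SCC25 had a log2 change of -0.09, with a 95% confidence interval of -0.49 to 0.31. The interaction had an adjusted p of 0.0266, and it missed the threshold under 5 of 24 alternatives, each with 1 library left out (up to 0.0988). The SCC1 call was lost without either PBS library (adjusted p = 0.107 without replicate 1 and 0.0863 without replicate 3).

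The region 7.6 kb upstream (chr1:209833376-209833576) had a signal of 62.5 and 50.2 in SCC1 PBS and of 12.7, 15.6 and 1.56 after cetuximab, the last of these being the level of 1 read. The log2 change was -2.77 ± 0.56 (SE, adjusted p = 0.00011), and the adjusted p was 0.0754 without SCC1 PBS replicate 1. No peak was called there in any SCC1 library. In SCC6 the means were 44.1 ± 6.42 in PBS and 47.1 ± 16 after cetuximab (SD, n = 3 each), and the log2 change was 0.04, with a 95% confidence interval of -0.48 to 0.55. The interaction had an adjusted p of 0.0119.

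The start site of LAMB3 itself did not pass the test in any line. Its start-site region with the highest signal (chr1:209826418-209826712, 0.648 kb upstream of the canonical start) had a signal of 154 and 140 in SCC1 PBS and of 119, 138 and 172 after cetuximab, which overlapped. The 95% confidence interval of the log2 change was -0.48 to 0.39 in SCC1, -0.40 to 0.21 in SCC6 and -0.44 to 0.49 in SCC25. The other LAMB3 start-site regions had adjusted p-values of 0.718 and 0.951 in SCC1, 0.0672 (log2 change -0.56) and 0.935 in SCC6, and 0.967 and 0.583 in SCC25.

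**Figure D2:**
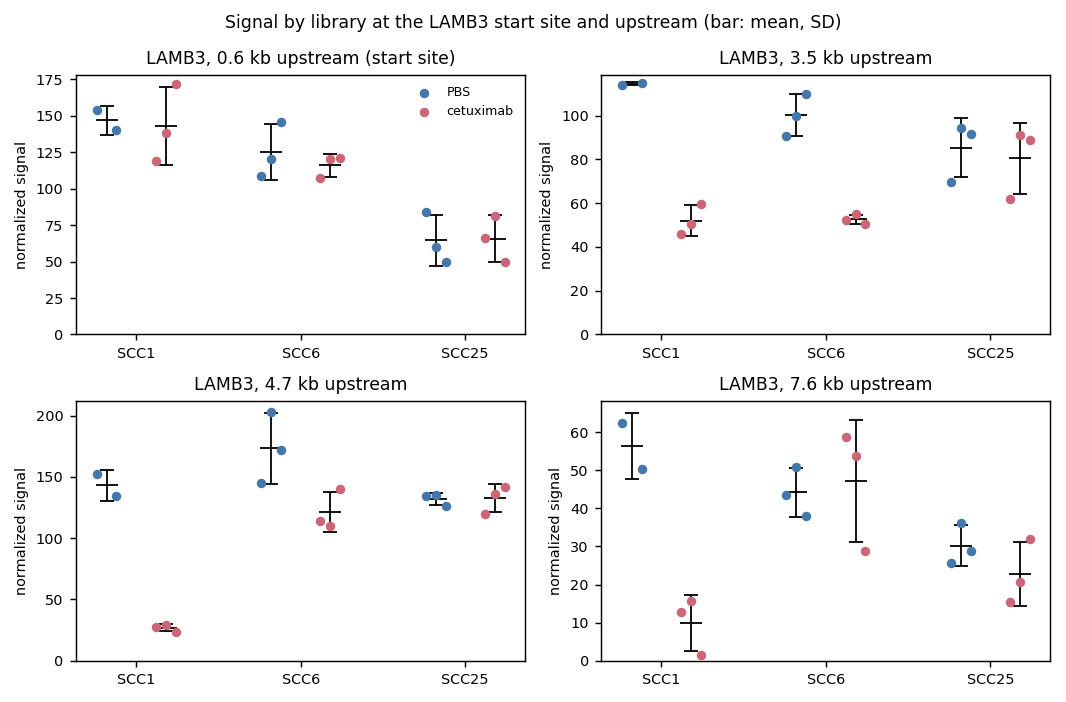
Normalized signal (vertical axis, from 0) at the LAMB3 start site and at 3 upstream regions in each library of SCC1, SCC6 and SCC25; points are libraries, PBS in blue and cetuximab in red, and the bars give the mean and SD. At 4.7 kb upstream the 3 SCC1 cetuximab libraries lie between 23.5 and 29.2, below both SCC1 PBS libraries, while at the start site the groups overlap in all lines.

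In total 4 of 10 tested LAMB3 regions fell in SCC1 and the median log2 change of the gene was -0.67. The fourth lay at the start site of CAMK1G (chr1:209780736-209781041), 44.7 kb from the LAMB3 start. Its signal was 125 and 108 in SCC1 PBS and 60.9, 37.0 and 31.3 after cetuximab, a log2 change of -1.47 ± 0.30 (SE, adjusted p = 0.000126, 0.0586 without SCC1 PBS replicate 1). In SCC25, where the level was lower, it was 24.7 ± 7.23 in PBS and 35.5 ± 11.0 after cetuximab (SD, n = 3 each), without a call, and the interaction had an adjusted p of 0.00811. Summed over its 11 regions, the signal of LAMB3 per kb of region was 306 and 323 in SCC1 PBS and 183 to 195 after cetuximab.

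LAMA3 encodes the alpha chain of laminin-332. Of its 15 tested regions 1 fell in SCC1, over the coding exon 38 of the canonical transcript (chr18:21451393-21451785). The signal was 87.2 and 73.7 in PBS and 41.9, 19.5 and 18.8 after cetuximab, and the groups did not overlap. This gave a log2 change of -1.65 ± 0.37 (SE, adjusted p = 0.000474, 0.0985 without SCC1 PBS replicate 1). In SCC6 it was -0.01, with a 95% confidence interval of -0.55 to 0.53, and in SCC25 -0.20, with an interval of -0.58 to 0.19. The interaction had an adjusted p of 0.0113. The LAMA3 start-site region with the highest signal, that of a shorter transcript (chr18:21452603-21453123), lies next to it. There SCC6 fell from 128, 159 and 146 to 95, 95.6 and 117, a log2 change of -0.49 ± 0.15 (SE, adjusted p = 0.0124, 0.12 with the GC trend removed), and SCC1 had a log2 change of -0.28 (adjusted p = 0.348).

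ITGB4 and ITGA6 encode the chains of the hemidesmosome integrin. The ITGB4 start-site region (chr17:73717096-73717564, over exon 1 of the canonical transcript, GC content 78.3%) had a signal of 98.9 and 122 in SCC1 PBS and of 286, 162 and 305 after cetuximab. Every treated library was above both PBS libraries. The log2 change was 1.13 ± 0.21 (SE, adjusted p = 1.4e-05), or 2.19-fold higher on that scale, and it held under each of 14 alternatives, from 0.71 to 1.42. In SCC6 the groups overlapped, with 93, 87.7 and 83.7 in PBS and 73.7, 59.4 and 92.2 after cetuximab, and a log2 change of -0.25 (95% confidence interval -0.63 to 0.13). In SCC25 the cetuximab libraries had 80.1, 110 and 119, all above the PBS values of 75.7, 72.1 and 62.8, with a log2 change of 0.53 ± 0.19 (SE) and an adjusted p of 0.214. The interaction had an adjusted p of 0.00988, and of 0.145 with the GC trend removed.

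The ITGA6 start-site region (chr2:173292074-173292737) had a signal of 67.7 and 70.3 in SCC1 PBS and of 93.9, 111 and 144 after cetuximab. Its log2 change of 0.72 ± 0.26 (SE, adjusted p = 0.0488) lay just inside the threshold and was lost under 6 alternatives, the GC trend removed among them (adjusted p = 0.446). ITGA3, whose product pairs with that of ITGB1 as a laminin receptor, had a log2 change of 0.57 ± 0.18 (SE, adjusted p = 0.0214) at the start of a transcript 6.33 kb inside the gene (chr17:48139809-48140187), which was lost under 5 alternatives: without SCC1 cetuximab replicate 1 (adjusted p = 0.26) or 3 (0.116), without SCC1 PBS replicate 1 (0.204) or 3 (0.221) and with the GC trend removed (0.192). The region at the canonical ITGA3 start had an SCC1 log2 change of 0.30 (limma adjusted p = 0.428). The other ITGA3 start-site regions had adjusted p-values of 0.628 and 0.332 in SCC1. Start-site regions in general moved up in SCC1: 12.6% of all start-site regions tested rose and 2.12% fell. The 3 of 17 own start-site regions of the member genes that rose (17.6%) are read against that background. The start-site regions of ITGA2, ITGA5 and ITGB1, with signals of 63.4 ± 5.06, 31.0 ± 5.89 and 136 ± 30.4 in SCC1 PBS (SD, n = 2 each), had log2 changes of 0.04, -0.12 and -0.08. That of ITGB1 (chr10:33294270-33294974) lay at the start of another transcript, 47.1 kb from the canonical start. The region at the canonical ITGB1 start was not called in SCC1 either.

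The calls left in SCC1 were in receptors for other ligands and in a flank. ITGA2 fell in an intron (chr5:52332040-52332232) from 40.3 and 46.9 to 10.2, 19.5 and 9.39, a log2 change of -1.74 ± 0.50 (SE, adjusted p = 0.0104, 0.164 without SCC1 PBS replicate 1 and 0.213 without replicate 3). The same region had the smallest adjusted p of any member in SCC25, at 0.0828, with 39.9, 38.9 and 36.5 in PBS, 15.5, 20.8 and 12.4 after cetuximab and a log2 change of -1.22 ± 0.31 (SE). A second ITGA2 region, 1.11 kb upstream of the start (chr5:52283489-52284070) and outside the naming rule, fell in SCC1 with a log2 change of -0.77 (adjusted p = 0.0182). The GALK1 start site past the end of ITGB4 had a log2 change of 0.73 (adjusted p = 0.0346). That call was lost under 7 of 14 alternatives, among them the GC trend removed (adjusted p = 0.415) and 1 fit of all libraries (0.0775).

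In SCC6 cetuximab was followed by higher signal in and around ITGB6 and by lower signal in the ITGA5 window. Of 81 member regions tested, 7 rose and 9 fell, which are shares of 8.64% and 11.1%. Over all regions tested in SCC6, 16.9% rose and 10.6% fell, so the share that fell was near the background and the share that rose was below it. The split depended on the scaling. With libraries centred on their medians, 5 member regions were higher and 18 lower. The median log2 change over the table went from 0.114 to -0.060. All regions moved too, from 14622 higher and 9152 lower to 10394 and 15782. Next to this, quantile normalization gave 6 and 13 member regions (11366 and 12979 of all regions). Removing the GC trend gave 11 and 6 (13092 and 7900 of all regions). Without SCC6 cetuximab replicate 2 the counts were 5 and 5 (9971 and 7058 of all regions). Of all start-site regions in SCC6, 5.65% rose and 10.9% fell, and of the 17 own start-site regions of the member genes 1 fell, that of LAMA3.

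ITGB6 had 3 of 6 tested regions higher in SCC6 and none lower. Past its end (chr2:160947984-160948343) the SCC6 PBS libraries had a signal of 1.21, 6.02 and 1.09, which is 1, 9 and 1 reads, and the cetuximab libraries 28.3, 22.3 and 25.8. The groups were far apart, and a peak was called in 3 of 3 treated and 0 of 3 PBS libraries. The log2 change was 3.05 ± 0.54 (SE, adjusted p = 2.1e-05), with PBS at or near 1 read, and it ranged from 2.02 to 3.62 over the alternatives. In SCC1 and SCC25 the region was open without treatment, at 77.1 ± 14.3 (SD, n = 2) and 47.7 ± 7.79 (SD, n = 3) in PBS, and the log2 changes were -0.36 (95% confidence interval -0.94 to 0.22) and 0.22 (-0.24 to 0.68). The interaction had an adjusted p of 7.6e-05.

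An intron region of ITGB6 (chr2:161014434-161014823) rose in both SCC6 and SCC1. In SCC6 its signal went from 4.83, 0.669 and 5.44 to 19.2, 16.7 and 16.5, a log2 change of 2.21 ± 0.57 (SE, adjusted p = 0.00249). In SCC1 it went from 93.7 and 80.4 to 202, 144 and 121, a log2 change of 0.80 ± 0.24 (SE, adjusted p = 0.0121). The SCC1 call was lost under 4 of 14 alternatives, leaving out either SCC1 PBS library among them. Its adjusted p was 0.369 in 1 fit of all libraries and 0.183 without SCC1 cetuximab replicate 1. The SCC1 log2 change was 0.60 to 0.99 over the alternatives. In both lines every treated library was above every PBS library, although the level was far higher in SCC1. In SCC25, with 8.44, 5.86 and 1.77 after cetuximab and at most 2.64 in PBS, the region was too low to be tested. The region upstream of ITGB6 (chr2:161061913-161062378), with a peak in every library, had 155, 149 and 137 in SCC6 PBS and 200, 212 and 211 after cetuximab, a log2 change of 0.50 ± 0.12 (SE, adjusted p = 0.0017, 0.0572 with median centring).

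ITGA5 encodes the alpha chain of the main fibronectin receptor, and 3 of its 8 regions tested in SCC6 fell. In an intron (chr12:54805179-54805592) the signal was 48.3, 38.8 and 67.4 in SCC6 PBS and 17.2, 13.9 and 15.9 after cetuximab, a log2 change of -1.63 ± 0.29 (SE, adjusted p = 2.3e-05). In SCC1 it was 89.8 and 59.2 in PBS and 21.6, 31.1 and 32.9 after cetuximab, a log2 change of -1.35 ± 0.36 (SE, adjusted p = 0.00497, 0.334 without SCC1 PBS replicate 1). In SCC25 it was 80.3, 72.1 and 90.8 in PBS and 53.4, 62.5 and 65.5 after cetuximab, a log2 change of -0.42 ± 0.20 (SE, adjusted p = 0.357). The groups did not overlap in any of the lines, and the interaction missed the threshold (adjusted p = 0.0542). Past the end of ITGA5, a region in ZNF385A (chr12:54776871-54777195) fell in SCC6 from 19.3, 27.4 and 34.8 to 3.03, 6.5 and 8.93 (adjusted p = 0.000272), and the start site of ZNF385A (chr12:54784171-54784426) rose from 16.9, 15.4 and 20.7 to 44.4, 44.6 and 49.3 (adjusted p = 0.000269). The ITGA5 start-site region itself had log2 changes of -0.12 in SCC1, 0.08 in SCC6 and 0.12 in SCC25, none past the threshold.

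**Figure D3:**
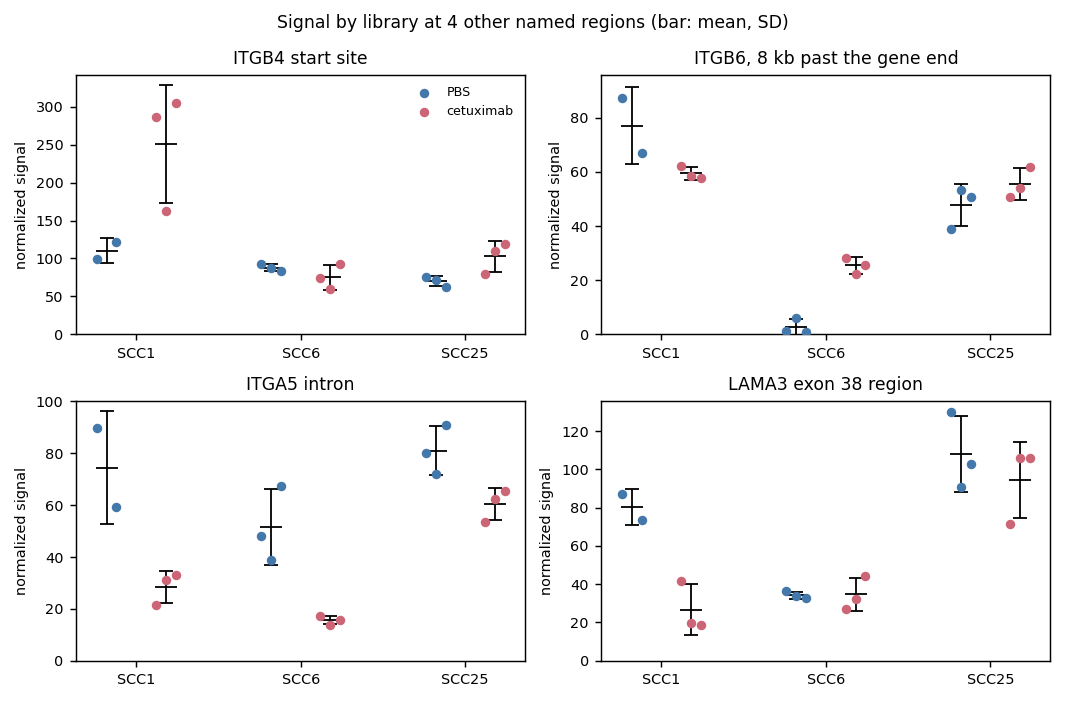
Normalized signal (vertical axis, from 0) at the ITGB4 start site, past the end of ITGB6, in an ITGA5 intron and over LAMA3 exon 38 in each library of SCC1, SCC6 and SCC25; points are libraries, PBS in blue and cetuximab in red, and the bars give the mean and SD. The SCC1 cetuximab libraries at ITGB4 lie between 162 and 305, above the PBS values, and the SCC6 PBS libraries past ITGB6 lie between 1.09 and 6.02, below the treated ones.

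Besides the upstream regions, LAMB3 had a low intron region that rose in SCC6 (chr1:209817119-209817261), from 1.21, 6.02 and 1.09 to 27.3, 18.6 and 26.8. These PBS values are 1, 9 and 1 reads. The log2 change was 2.96 ± 0.55 (SE, adjusted p = 4.4e-05), from 1.95 to 3.53 over the alternatives, and SCC1, with 43.1 ± 8.9 in PBS (SD, n = 2), had a log2 change of 0.05 (95% confidence interval -0.64 to 0.74). The interaction had an adjusted p of 0.00211. An intron region of ITGA6 (chr2:173303825-173303975) fell in SCC6 from 36.2, 19.4 and 32.6 to 8.08, 14.9 and 9.59 (log2 change -1.36 ± 0.36, SE, adjusted p = 0.00385). A region 18.1 kb upstream of ITGA3 (chr17:48114854-48115365) rose in SCC6 with a log2 change of 1.15 (adjusted p = 0.00635), although its groups overlapped. The SCC6 calls outside the naming rule were 1 higher and 1 lower in ITGA2 introns, 1 lower upstream of ITGA3 and 1 lower upstream of ITGA5. No ITGB1 region passed the test in SCC1 or SCC6.

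In SCC25 none of 79 member regions passed the test, with 14 at an unadjusted p under 0.05. Over all regions, 11405 of 86315 were at an unadjusted p under 0.05, so no member response is read from the 14. Of all regions tested in SCC25, 0.0405% rose and 0.275% fell. edgeR and DESeq2 on the recovered reads also called 0 member regions, where they called 968 and 218 of all regions. The median log2 change was -0.08 over member regions and -0.08 over all regions.

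The AP-1 letters were in 4 of the 8 member regions that fell in SCC1 and 1 of the 5 that rose, where 58.7% of all regions that fell and 13.9% of all that rose held them. In SCC6 they were in 5 of 9 that fell and 2 of 7 that rose, where all regions gave 48.5% and 23.1%.

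SCC1 and SCC6 shared 4 called regions, which are 30.8% of the SCC1 calls and 25% of the SCC6 calls, and the direction was the same in each: 2 regions upstream of LAMB3 and the ITGA5 intron fell, and the ITGB6 intron rose. Over all regions, 31.9% of the SCC1 calls were also called in SCC6 and 12.9% of the SCC6 calls in SCC1, and 75.6% of these shared calls had the same direction. The member share of SCC1 calls was thus near that of the whole table, and with 4 regions nothing particular to the members is read from it. The treatment effect differed between lines in 13 of 86 member regions (15.1%), against 13.2% of all regions tested, so the member share was near the background. Of these, 5 were LAMB3 regions, 2 each were in ITGA2 and LAMA3, and 1 each was in ITGA5, ITGA6, ITGB4 and ITGB6. The count was 7 without SCC1 PBS replicate 1.

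Other genes of hemidesmosomes, adhesion and matrix were read at their start-site region with the highest signal. Of 28 genes, 27 had such a region and 26 were tested. In SCC1 4 rose and none fell, in SCC6 4 rose and 4 fell, and in SCC25 none passed the test, with median log2 changes of -0.04, -0.02 and 0.02. The share that rose was 15.4% in each of SCC1 and SCC6, where all start-site regions gave 12.6% and 5.65%. The share that fell in SCC6 was 15.4%, where all start-site regions gave 10.9%. The first shares are for the strongest region of each gene and the others for every tested start-site region. These sets are unlike, so no excess is read from them. CD151, a tetraspanin that binds laminin receptors, rose in SCC1 from 57.4 ± 5.34 (SD, n = 2) to 145 ± 20 (SD, n = 3), which is 1.31 on the log2 scale (adjusted p = 3.6e-05), and by 0.64 in SCC6 (adjusted p = 0.00955). FN1, which encodes fibronectin, rose by 0.94 in SCC1 (adjusted p = 0.00249) and 1.06 in SCC6 (adjusted p = 1.0e-06). COL7A1, the collagen of anchoring fibrils, rose by 0.62 in SCC1 (adjusted p = 0.0352) and 0.66 in SCC6 (adjusted p = 0.00502).

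LAMA5, a laminin alpha chain, had a log2 change of 0.64 in SCC1 (adjusted p = 0.0121) and of -0.28 in SCC6 (adjusted p = 0.0429). COL17A1, a hemidesmosome collagen, rose in SCC6 by 1.18 (adjusted p = 0.0345) from a low level of 11.3 ± 6.77 (SD, n = 3). DST, PTK2 and TNC fell in SCC6, with log2 changes of -0.29, -0.38 and -0.36. For these other genes of hemidesmosomes, adhesion and matrix the alternatives were not examined.

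The PBS libraries give the state of these genes without the antibody in each line. One group of regions has to be set apart first. Of regions within 5 bases of the commonest width in the table, 201 bases, 65.3% had a mean SCC6 signal at least 4-fold above that of the other lines, against 5.79% of regions of other widths. Of the member regions 12 were of this width, and in 8 of these SCC6 was at least 4-fold above, against 2 of the 79 other members. They lie in or near ITGA2, ITGA6, ITGB1, ITGB6, LAMA3 and LAMB3. In the LAMA3 region of this kind (chr18:21260430-21260628) SCC6 libraries had a signal of 46.8 to 93.9 and all other libraries 0.721 to 9.39, at most 7 reads, and 6 SCC6 peak lists but none of the other lines held a peak with just these bounds. The cause was not tested, and the counts between PBS libraries are given with and without these regions. The LAMB3 region 7.6 kb upstream, called in SCC1, was also of this width, with SCC6 less than 4-fold above the other lines. There 1 SCC6 peak list but none of the other lines held a peak with just its bounds.

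Between PBS libraries, SCC6 differed from SCC1 in 50 of 86 member regions, with 13 higher and 37 lower. All regions gave 30.7% higher and 30.5% lower, against 15.1% and 43% of the members. Centring each region on its surroundings, 20 kb to 1 Mb away, gave 20 higher and 29 lower (23188 and 25496 of all regions). Without the regions of the commonest width there were 7 and 35. SCC25 differed from SCC1 in 39 regions, with 14 higher (16.3%) and 25 lower (29.1%), where all regions gave 28.2% and 23.1%. Median centring, which moved the median of all regions from -0.036 to -0.272, gave 12 and 39 (20868 and 27523 of all regions). Without the regions of the commonest width there were 14 and 24. SCC25 differed from SCC6 in 55 regions, with 35 higher (40.7%) and 20 lower (23.3%), where all regions gave 36.7% and 32.1%. Median centring gave 30 and 29 (29093 and 31426 of all regions), and local centring 24 and 21 (26559 and 28040 of all). Without the regions of the commonest width 33 and 14 were left. These comparisons share libraries, so they are not independent of each other.

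Per kb of region, the summed PBS signal of SCC1 was highest for LAMB3 (306 and 323) and ITGA3 (291 and 323), which overlapped, followed by ITGB6 (223 and 256) and ITGB4 (221 and 226), which overlapped too. ITGA2 (172 and 182) and LAMA3 (157 and 177) came next, and ITGA5 (135 and 152), ITGB1 (125 and 131) and ITGA6 (99.3 and 129) were lowest. In SCC6 LAMB3 stood alone at the top (229 to 266), ITGA3 (192 to 212) and ITGB1 (184 to 212) followed, ITGA2 (130 to 158), ITGB6 (134 to 146) and ITGB4 (111 to 135) overlapped, and LAMA3 (75.4 to 89.7) and ITGA5 (66.6 to 89.5) were lowest, below ITGA6 (93.2 to 116). In SCC25 ITGB1 was highest (212 to 245), then LAMB3 (180 to 202), and ITGA6 lowest (80.8 to 85.5). In between, LAMA3 (157 to 185) overlapped LAMB3, ITGA5 (175 to 179) and ITGA3 (169 to 173), and ITGA2 (133 to 155), ITGB6 (121 to 137) and ITGB4 (112 to 133) followed.

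Several genes kept the same order of lines in every PBS library. ITGA3 and LAMB3 were highest in SCC1, lower in SCC6 and lowest in SCC25, without overlap. ITGB4 and ITGB6 were highest in SCC1, with SCC6 (111 to 135 and 134 to 146) and SCC25 (112 to 133 and 121 to 137) overlapping each other. ITGB1 was lowest in SCC1. LAMA3 and ITGA5 were lowest in SCC6. These levels are descriptions, with no test on the sums.

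**Figure D4:**
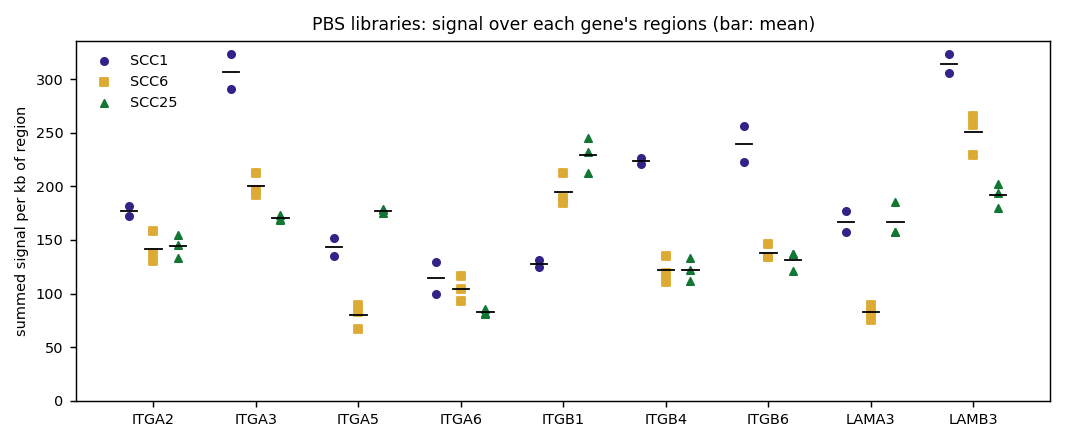
Summed normalized signal per kb of region (vertical axis, from 0) for the 9 genes (horizontal axis) in each PBS library of SCC1, SCC6 and SCC25; each marker is a library and the bar is the mean. LAMB3 has 306 and 323 in SCC1 and 180 to 202 in SCC25, while LAMA3 is lowest in SCC6 at 75.4 to 89.7.

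The surroundings of some genes differed between lines in the same direction. Over 53 to 104 tested regions per gene that lay 20 kb to 1 Mb away, the median log2 difference of SCC25 to SCC6 was 1.24 around LAMA3, where the gene itself had 1.18. Around LAMB3 the difference of SCC25 to SCC1 was -1.02, where the gene had -0.83. For these genes the number of copies of the chromosome segment and the accessibility of the gene cannot be told apart. Around ITGB1 the difference of SCC6 to SCC1 was 0.24, where the gene had 1.16, although 2 of its 10 tested regions were of the commonest width and more than 4-fold above in SCC6. Around ITGB4 it was -0.24, where the gene had -1.01, and around ITGA5 the difference of SCC25 to SCC6 was -0.05, where the gene had 1.10.

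**Figure D5:**
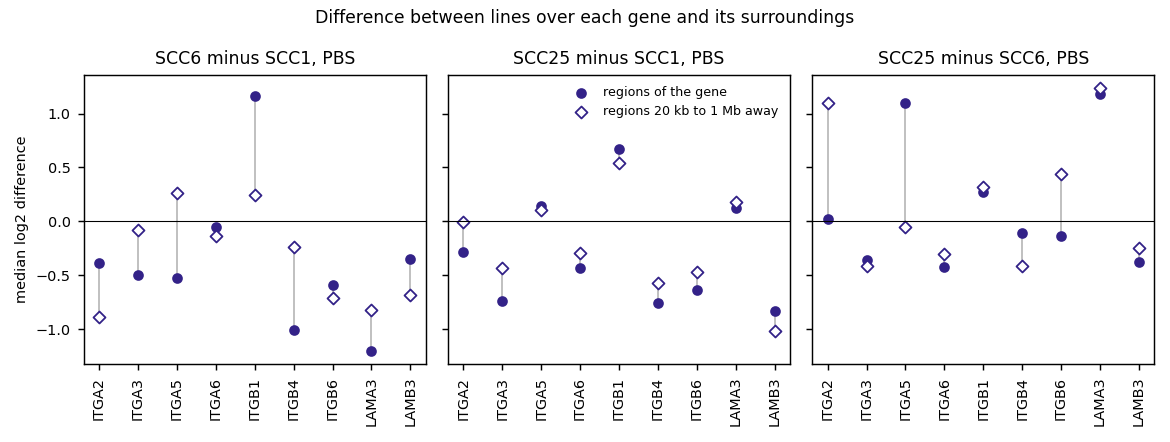
Median log2 difference in PBS (vertical axis) over the tested regions of each gene (filled circles) and over regions 20 kb to 1 Mb away (open diamonds), for the 3 pairs of lines. For LAMA3 between SCC25 and SCC6 both lie close together, at 1.18 and 1.24, whereas for ITGA5 they lie at 1.10 and -0.05.

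Single regions differed more than the genes as a whole. The region 9.24 kb upstream of ITGA5 (chr12:54822286-54822774) had a PBS signal of 105, 122 and 106 in SCC25, of 31.2 and 41.3 in SCC1 and of 1.21, 7.36 and 3.26 in SCC6. The log2 difference of SCC25 to SCC6 was 4.70 ± 0.40 (SE, adjusted p = 4.6e-08), and 4.60 after local centring. The region upstream of ITGB1 (chr10:33299055-33299641) lay 51.9 kb from the canonical start. It had 161, 149 and 191 in SCC6 and 219, 192 and 209 in SCC25, against 41.6 and 44.7 in SCC1. Its log2 difference of SCC6 to SCC1 was 1.92 ± 0.15 (SE, adjusted p = 2.6e-08), and 1.14 after local centring. The region far upstream of ITGA3, at 120 and 127 in SCC1 and 10.9, 18.7 and 26.1 in SCC6, had a log2 difference of -2.75 ± 0.31 (SE, adjusted p = 1.3e-06), and -2.60 after local centring.

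The ITGB4 intron region 1.74 kb from the start (chr17:73719283-73719641) had a PBS signal of 142 and 127 in SCC1, 43.5, 64.2 and 44.6 in SCC6 and 83.7, 72.1 and 77.2 in SCC25. The log2 difference of SCC6 to SCC1 was -1.41 ± 0.20 (SE, adjusted p = 2.0e-05), and -0.92 after local centring. The ITGA2 intron region that fell in SCC1 had 10.7 to 14.5 in SCC6 PBS, and its log2 difference of SCC25 to SCC6 of 1.57 (adjusted p = 9.1e-05) was 0.64 after local centring (adjusted p = 0.0425). The ITGA6, ITGB6, LAMA3 and LAMB3 regions with the smallest adjusted p between lines were all of the commonest width, with SCC6 PBS signals of 37.5 to 48.3, 21.7 to 41.3, 46.8 to 56.6 and 29.4 to 41.3. No library of SCC1 or SCC25 held more than 8 reads in any of these regions, so no fold is given.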

How the data were processed

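Per the labels and the study's methods, the authors trimmed reads with Trim Galore 0.5.0, aligned them to hg19 (GRCh37) with Bowtie2 2.3.2, and dropped duplicates and reads of the mitochondrial genome (Picard 2.18, SAMtools 1.9). Peaks were called per library with MACS2 in broad mode and merged with DiffBind; versions of these and the peak cut-off are not given in the sources used here. The deposited region table holds normalized signal: in every library the values were whole reads times 1 step, with 0 set to 1 read, so reads could be recovered (100% of values came out whole within 0.001). The deposited peak lists give fold enrichment and -log10 p and q values, and only their positions were used here, a peak counting where it overlapped a region by at least 1 base.

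Members, gene lists and tests were chosen with earlier results of these data known. Per fit, the 25% of regions with the lowest mean were left out. log2(signal + 1) was tested with limma 3.58.1 (R 4.3.3, trend and robust, two-sided, Benjamini-Hochberg over all regions, 0.05): each line alone for cetuximab against PBS, all 17 libraries for the interaction, and the 8 PBS libraries for differences between lines. A start-site region lies within 1 kb of a GENCODE start site, and for single genes the one with the highest mean signal was used. Named were, for each gene, this region and the one with the smallest adjusted p between PBS groups, up to 4 regions per direction called in a line, up to 6 by the interaction, and pathway genes called in any line. Whole-library scaling, the pseudocount (5), the filter, edgeR 4.0.16 and DESeq2 1.42.0 on recovered reads, a replicate block, 1 fit of all libraries, local centring and leaving out each library were the alternatives. Removal of the GC trend and leaving out regions near the commonest width were added after seeing the data. The fits were tested on simulated data. Member regions had a median of 16 to 133 reads per library, which limits precision; intervals come from the replicate spread. A gene of the pathway list and a sequence are not reported here.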

Additional observations from a re-analysis of the deposited data

Results flagged for a closer look

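The treatment effect differed between the 3 lines (limma's F-test of the interaction, adjusted p) in 10 of the named regions. For LAMB3 the adjusted p was 9.9e-07 at the region 4.7 kb upstream, 0.0266 at 3.5 kb and 0.0119 at 7.6 kb. SCC1 was lower after cetuximab at each of these, and SCC6 was lower too at 4.7 kb and 3.5 kb. At the CAMK1G start site the adjusted p was 0.00811, with SCC1 lower, and in the LAMB3 intron 0.00211, with SCC6 higher. For ITGB6 it was 7.6e-05 past the gene end, with SCC6 higher. For ITGB4 it was 0.00988 at the start site, with SCC1 higher. For LAMA3 it was 0.0113 over exon 38, with SCC1 lower. At the ZNF385A start site in the ITGA5 window it was 0.0399, with SCC6 higher, but 12 of 24 alternatives missed the threshold there, among them median centring (0.0914) and quantile normalization (0.0612). Alternatives also missed it at the LAMB3 regions 3.5 kb upstream (5 of 24, up to 0.0988) and 7.6 kb upstream (2, up to 0.0862), at the CAMK1G start site (1, 0.0592), over LAMA3 exon 38 (2, up to 0.0795) and at the ITGB4 start site (1, with the GC trend removed, 0.145).

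The remaining region lay 15.4 kb upstream of LAMA3 (chr18:21253746-21254064), with an adjusted p of 0.011. It had a signal of 10.4 and 8.93 in SCC1 PBS and of 21.6, 25.3 and 18.8 after cetuximab. In SCC25 it had 65.9, 53.4 and 56 in PBS and 33.7, 38.4 and 28.3 after cetuximab, so the groups were apart in opposite directions in these lines, although neither passed the test within its line (adjusted p = 0.226 and 0.142).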

How the results depend on the processing

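Member calls went from 2 to 15 in SCC1 and from 10 to 17 in SCC6 when single libraries were left out (13 and 16 with all), and interaction calls from 7 to 16 (13 with all). The lowest counts came without SCC1 PBS replicate 1 (2 and 7) or replicate 3 (6 in SCC1), where a lone PBS library is assumed to vary like the others, and without SCC6 cetuximab replicate 2 (10). The alternatives that kept all libraries left each count within 1.5 times its value. SCC25 had 0 calls under each of them. With a replicate block the counts were 15, 16 and 0, where all regions gave 12451, 24768 and 744. The same-numbered libraries deviated together with correlations of only -0.042 to 0.0265. With 2 or 3 libraries per group, this cannot tell whether same-numbered libraries shared a culture or batch. Under the block 0 of 24 named line calls were lost. Of 707 repeats of 43 named calls, 645 stayed past the threshold and 62 missed it. Among these 43 calls, no repeat within a line or between PBS libraries turned sign. Between PBS libraries they hold only the comparison with the smallest adjusted p of each gene. Other called PBS comparisons of named regions did turn sign in some repeats. At the LAMA3 start site of the shorter transcript the log2 difference of SCC25 to SCC6 ran from -0.97 to 0.46. The interaction test has no direction, so its repeats are counted by the threshold only. 23 calls were kept in every repeat, among them the LAMB3 region 4.7 kb upstream and the ITGB4 start site in SCC1 and the ITGB6 region past the gene end in SCC6. Local centring kept 19 of the 39 calls between SCC25 and SCC1. In 1 fit of all libraries SCC1 had 4 higher and 11 lower member regions, where all regions gave 5165 and 7316. The causes of these changes were not tested. The SCC1 libraries held at most 4171650 reads in regions, and SCC25 cetuximab replicates 1 and 3 held 3214656 and 2513828. This limits what could be seen in low regions of both lines.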
